A study of Homo sapiens with 6 samples.

Results

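The collagen chains measured in HCCC9810 cells are described here: the genes whose symbol consists of COL, a number, the letter A and a number, each coding for a chain of a collagen protein. The count table held 44 such genes among 19470. HCCC9810 is an established human cholangiocarcinoma (CCA) cell line, labelled wild type. The study asked which genes change when these cells are exposed to isolinderalactone (ILL), a sesquiterpenoid lactone under examination as an anticancer compound. mRNA-seq libraries were compared between cells given 20 μM ILL for 24 h and cells given the vehicle, DMSO, for 24 h, with 3 libraries in each group. A single cell line was sampled, and the labels do not say whether the libraries came from separate cultures, so all p-values measure only the spread between these libraries.

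Collagens are extracellular proteins built from chains that wind around each other in a helix, and a collagen type is made either of copies of the same chain or of partner chains from different genes. Fibrillar collagens form the cables of connective tissue, fibril-associated collagens sit on their surface, type IV collagens form the sheet-like network of basement membranes, type VI collagens form beaded filaments, and transmembrane collagens stay anchored in the cell surface. In cholangiocarcinoma most fibrillar collagen of the dense stroma is made by fibroblasts, while the epithelial tumour cells contribute basement membrane and adhesion collagens.

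Sequencing depth was even, with 34282764 to 37758569 counts per library. The biliary and epithelial markers KRT7, KRT19, KRT8, KRT18, EPCAM, SOX9 and CDH1 were expressed, and their summed level was 9050 to 9290 CPM (counts scaled to library size) in controls and 9530 to 10100 CPM with ILL. Within that sum all 7 changed by adjusted p, 3 upwards and 4 downwards (42.9% and 57.1%, beside 36.2% and 36.9% of all genes tested). CDH1, the epithelial cadherin, rose from 247 to 1040 CPM (log2 fold change 2.07), KRT7 rose by 0.64 and EPCAM by 0.24. KRT18, SOX9, KRT19 and KRT8 fell by 0.82, 0.56, 0.18 and 0.16. Of 8 fibroblast markers, 4 had at most 3 counts in every library, among them DPT with none, and the list summed to 2.97 to 4.01 CPM in controls and 2.03 to 4.49 CPM with ILL. The list of 8 endothelial and leukocyte markers summed to 37 to 42.3 CPM in controls and 113 to 119 CPM with ILL, nearly all of it CD68, a lysosomal protein that is not limited to leukocytes. In RNA from a whole culture, fewer cells of a type and less RNA per cell cannot be told apart.

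Of the 44 collagen genes, 24 had enough reads to be tested. Another 4 had no count in any library (COL14A1, COL19A1, COL6A5 and COL6A6), 6 had at most 3 counts in every library, and 10 had more but failed the filter. A count of 0 allows a level of up to 0.0773 to 0.0872 CPM, depending on the library, for counting error only. Levels were compared between genes in FPKM, which divides by gene length: 11 collagen genes averaged at least 1 FPKM over the 6 libraries and 5 averaged at least 5 FPKM.

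In order of level, COL17A1, the transmembrane collagen of hemidesmosomes, came first with 97.9, 111 and 122 FPKM in the controls and 146, 169 and 144 FPKM with ILL. COL6A1 followed with a mean of 11.4 ± 0.92 FPKM in controls and 20.6 ± 2.69 with ILL (SD, n = 3). The next were COL18A1, the precursor of endostatin in basement membranes, with 9.38 ± 0.291 and 8.53 ± 0.899 FPKM, COL7A1, which forms the anchoring fibrils beneath epithelia, with 7.71 ± 0.787 and 9.90 ± 1.54 FPKM, and COL4A5, a basement membrane chain, with 6.67 ± 0.68 and 9.11 ± 0.558 FPKM. This order follows the mean over all 6 libraries. COL18A1 lay above COL7A1 in every control and below it in every ILL library, so their order turned between the groups. COL7A1 and COL4A5 overlapped, whereas COL17A1 stood above every other chain in every library.

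**Figure D1:**
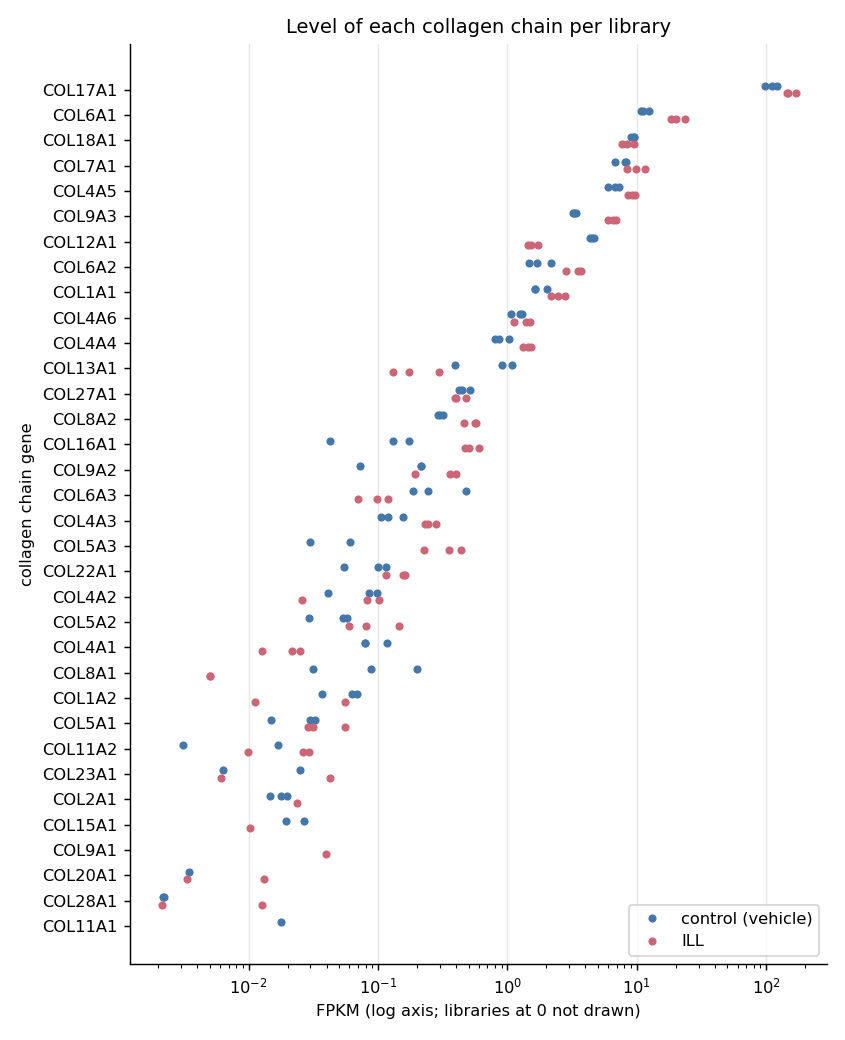
Level of each collagen gene in FPKM (horizontal log axis) in each control (blue) and ILL (red) library, for the 34 genes with more than 3 counts in at least 1 library; libraries at 0 are not drawn. COL17A1 lies near 100 FPKM or above in all libraries but the lowest control, at 97.9, and most genes lie under 1 FPKM.

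Summed over all 44 genes, collagen reads made up 851, 949 and 1030 CPM in the controls and 1250, 1450 and 1210 CPM with ILL. The groups did not overlap, and the sum was 1.38-fold higher with ILL (943 ± 89.5 against 1300 ± 125 CPM, SD, n = 3; exact two-sided permutation p = 0.1, the smallest that 3 against 3 libraries allow). COL17A1 alone supplied 62.8 to 65.0% of collagen CPM in controls and 66.7 to 68.4% with ILL. Without it the sums were 316, 339 and 360 CPM against 418, 468 and 384 CPM, which is 1.25-fold higher.

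The study's cutoffs were an adjusted p under 0.05 together with a change of more than 2-fold up or to less than 0.5 of the control. The study applied them with DESeq2, and here they were applied to an edgeR fit. With them, 4 of the 24 tested collagen genes were higher with ILL (16.7%, against 12.5% of all 13066 genes tested) and 4 were lower (16.7%, against 11.4%). The higher ones were COL5A3, COL16A1, COL9A3 and COL4A3, and the lower ones COL4A1, COL13A1, COL6A3 and COL12A1. DESeq2's Wald test called the same 8 and also called COL8A1 lower (log2 fold change -4.91, adjusted p = 0.00036). By adjusted p alone, 12 rose (50%, against 36.2% of all genes) and 4 fell (16.7%, against 36.9%). The groups did not overlap in 18 of the 24 genes, 14 with ILL above and 4 with ILL below, which is 75% against 75.4% of all genes. The median log2 fold change of the 24 was 0.60, beside -0.0012 over all genes tested. Just inside the fold cutoff lay COL9A3 at a log2 fold change of 1.04 and COL4A3 at 1.06, and just outside it COL6A2 at 0.99 and COL6A1 at 0.92. Those 4 changed side with single libraries or scaling: COL4A3 and COL9A3 dropped below the cutoff when libraries were scaled by total counts (0.99 and 0.97), and COL6A2 crossed it with DESeq2's size factors, as did COL6A1 without ILL replicate 3 (1.01). COL5A3, COL16A1 and COL4A1 had libraries under 10 counts (lowest 0, 9 and 7), so a filter of 10 counts in every library left 5 of the 8 calls. The main filter kept COL5A3 through its ILL libraries, where it was high, and dropped COL8A1. It thereby settled which of them could be called.

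**Figure D2:**
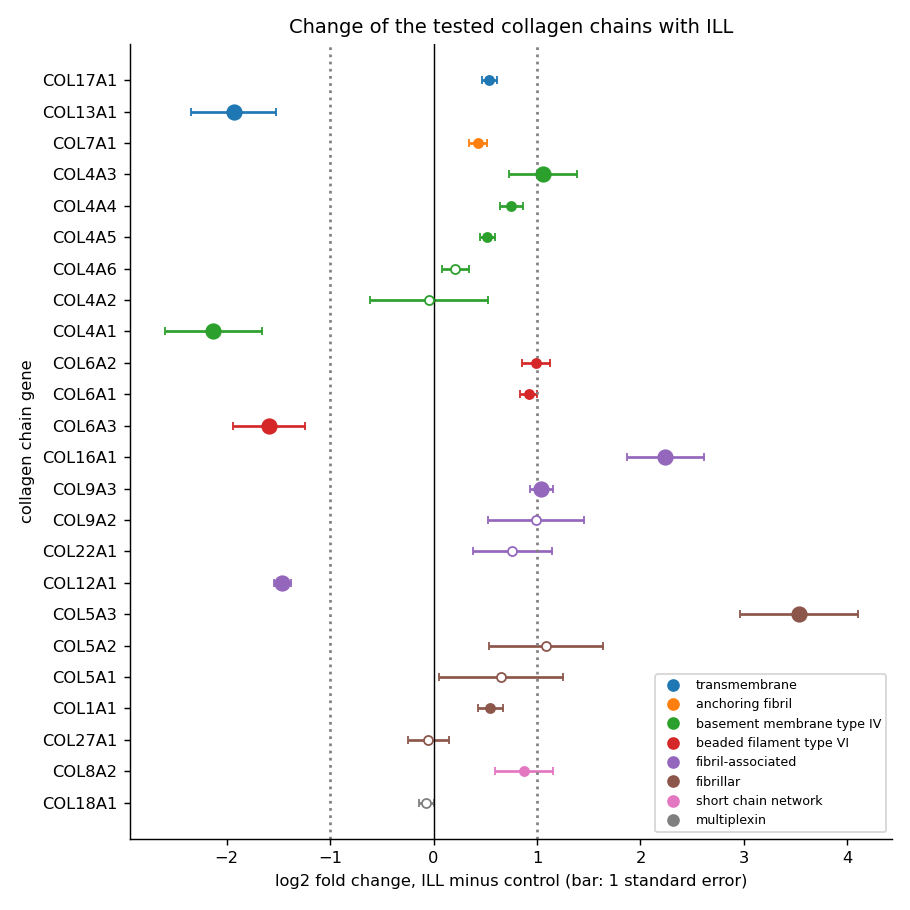
Log2 fold change (ILL minus control) of the 24 tested collagen genes by class, with bars of 1 standard error and dotted lines at 2-fold. Large filled points passed adjusted p and fold, small filled points adjusted p alone, and open points neither; COL5A3 lies farthest to the right at 3.53 and COL4A1 farthest to the left at -2.13.

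Among the transmembrane collagens the 2 tested chains moved in opposite directions. COL17A1 measured 534, 610 and 670 CPM in controls and 835, 979 and 830 CPM with ILL. Every ILL library lay above every control, and the level rose by 0.54 on the log2 scale (SE 0.07, 1.46-fold, edgeR adjusted p = 1.2e-07). COL13A1, a chain found at cell junctions and the neuromuscular synapse, measured 3.66, 1.31 and 3.05 CPM in controls and 1.03, 0.610 and 0.458 CPM with ILL. The groups did not overlap, although the lowest control stood close to the highest ILL library, and the level fell by 1.93 on the log2 scale (SE 0.41, adjusted p = 0.00016).

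In the type IV group, 6 of 6 chains were tested, 3 rose by adjusted p and 1 fell, beside 36.2% and 36.9% of all genes tested. These genes lie in head-to-head pairs with a short stretch between their outermost annotated starts: 126 bases separate COL4A1 and COL4A2 on chromosome 13, 135 bases COL4A4 and COL4A3 on chromosome 2, and 379 bases COL4A6 and COL4A5 on chromosome X (GRCh38.p14, RefSeq). The windows of 250 bases before and 50 after the starts of COL4A1 and COL4A3 are shown because each holds the outermost annotated start of its neighbour too. Capitals mark matches to the GC box GGGCGG, the CCAAT box, TATAAA and the AP-1 motif TGANTCA on either strand.
COL4A1 (chr13:110307108-110307407, minus strand): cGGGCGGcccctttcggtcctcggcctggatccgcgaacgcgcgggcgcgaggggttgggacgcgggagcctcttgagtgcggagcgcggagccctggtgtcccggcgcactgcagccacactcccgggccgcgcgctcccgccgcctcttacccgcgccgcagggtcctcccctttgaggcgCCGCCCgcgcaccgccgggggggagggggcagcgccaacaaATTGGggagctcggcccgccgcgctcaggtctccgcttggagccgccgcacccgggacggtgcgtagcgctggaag
COL4A3 (chr2:227164374-227164673, plus strand): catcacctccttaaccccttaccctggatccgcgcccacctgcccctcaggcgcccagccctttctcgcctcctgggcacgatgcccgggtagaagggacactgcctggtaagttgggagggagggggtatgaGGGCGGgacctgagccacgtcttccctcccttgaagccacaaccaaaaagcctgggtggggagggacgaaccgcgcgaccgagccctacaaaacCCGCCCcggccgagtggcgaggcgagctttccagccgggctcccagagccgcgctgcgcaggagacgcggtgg
In the first window COL4A1 starts at base 251 and the outer start of COL4A2 lies at base 124, with 2 GC boxes, 1 CCAAT box and 76.7% G and C. In the second COL4A3 starts at base 251 and the outer start of COL4A4 lies at base 115, although the start that the promoter table uses for COL4A4, at position 227164205, lies outside this window, with 418 bases between it and that of COL4A3. This window has 2 GC boxes and 67.7% G and C. Over 35116 RefSeq promoter windows the median was 58.7% G and C, and 45.0% held a GC box, 34.6% a CCAAT box, 11.5% a TATAAA and 7.71% an AP-1 motif. The 44 windows of the 32 collagen genes in that table had a median of 63.7% G and C, and 54.5%, 31.8%, 18.2% and 2.27% held these motifs. A match is a description of letters, not a bound site.

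COL4A1, whose product forms the ubiquitous basement membrane network with COL4A2, measured 1.78, 1.20 and 1.22 CPM in controls and 0.2, 0.349 and 0.400 CPM with ILL. All ILL libraries lay below all controls, and the level fell by 2.13 on the log2 scale (SE 0.47, adjusted p = 0.00027). Its head-to-head neighbour COL4A2 had 24, 9 and 19 counts in controls and 19, 23 and 6 with ILL. The groups overlapped, and its log2 fold change of -0.04 (SE 0.57, 95% interval -1.22 to 1.14, adjusted p = 0.958) leaves a change of either sign within the error. The ratio of this pair was not computed, as COL4A1 (lowest count 7) and COL4A2 both fell under 10 counts in at least 1 library.

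COL4A3 and COL4A4, chains of the network in kidney, lung and inner ear basement membranes, both rose. COL4A3 measured 0.876, 0.996 and 1.33 CPM in controls and 2.14, 2.50 and 2.03 CPM with ILL. The groups did not overlap, with a log2 fold change of 1.06 (SE 0.33, adjusted p = 0.00653), which was 0.93 without control replicate 1 and 0.97 without ILL replicate 2, under the fold cutoff. COL4A4 rose from 9.55, 12.4 and 10.4 CPM to 16.6, 18.5 and 19.3 CPM, a log2 fold change of 0.75 (SE 0.11, adjusted p = 2.5e-06). COL4A4 overlaps RHBDD1, a gene that itself rose by 1.04 on the log2 scale. The overlap covers part of COL4A4, which spans positions 226967360 to 227164488, while RHBDD1 ends at 226999210. The sources do not say whether reads were counted by strand, so reads in the shared stretch cannot be told apart. The ratio of COL4A3 to COL4A4 counts did not separate the groups (log2 difference 0.32, exact permutation p = 0.2).

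COL4A5 rose from 41.8, 48.0 and 51.7 CPM to 68.0, 71.7 and 63.1 CPM, with a log2 fold change of 0.52 (SE 0.07, adjusted p = 9e-07). COL4A6, its neighbour, measured 8.78, 10.3 and 10.7 CPM in controls and 12.9, 9.73 and 12 CPM with ILL. The COL4A6 groups overlapped, with a log2 fold change of 0.21 and a 95% interval of -0.05 to 0.48 (adjusted p = 0.141). The ratio of COL4A5 to COL4A6 counts was 4.76, 4.65 and 4.81 in controls and 5.28, 7.37 and 5.27 with ILL, without overlap (log2 difference 0.31, exact permutation p = 0.1, adjusted p = 0.25 over 5 pairs).

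Of 5 type VI chains in the table, 3 were tested, and they split. COL6A1 and COL6A2, whose products combine with that of COL6A3 into the beaded filament, rose while COL6A3 fell. COL6A1 measured 45.5, 43.7 and 51.3 CPM in controls and 86.4, 102 and 78.4 CPM with ILL, and its log2 fold change was 0.92 (SE 0.08, adjusted p = 1.9e-10). COL6A2 measured 6.70, 7.71 and 9.93 CPM against 16.7, 18.0 and 13.7 CPM, and its log2 fold change was 0.99 (SE 0.14, adjusted p = 6.2e-07), 1.16 without control replicate 3 and 1.10 without ILL replicate 3. In both genes every ILL library lay above every control. COL6A3 measured 2.68, 2.05 and 5.32 CPM in controls and 1.37, 0.813 and 1.14 CPM with ILL. The controls of COL6A3 spread widely, with control replicate 3 the highest, yet none overlapped the ILL libraries, and the level fell by 1.59 on the log2 scale (SE 0.35, adjusted p = 0.00026). COL6A1 and COL6A2 lie on chromosome 21 and COL6A3 on chromosome 2. The promoter windows of COL6A2 and COL6A3 are shown because these chains of one protein moved in opposite directions.
COL6A2 (chr21:46097862-46098161, plus strand): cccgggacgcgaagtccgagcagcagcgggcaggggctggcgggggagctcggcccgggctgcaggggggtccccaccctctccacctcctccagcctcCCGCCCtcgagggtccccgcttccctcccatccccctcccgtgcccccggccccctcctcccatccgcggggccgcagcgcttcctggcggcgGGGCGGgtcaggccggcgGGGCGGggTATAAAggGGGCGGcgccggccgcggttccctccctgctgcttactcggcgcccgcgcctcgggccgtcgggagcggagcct
COL6A3 (chr2:237414115-237414414, minus strand): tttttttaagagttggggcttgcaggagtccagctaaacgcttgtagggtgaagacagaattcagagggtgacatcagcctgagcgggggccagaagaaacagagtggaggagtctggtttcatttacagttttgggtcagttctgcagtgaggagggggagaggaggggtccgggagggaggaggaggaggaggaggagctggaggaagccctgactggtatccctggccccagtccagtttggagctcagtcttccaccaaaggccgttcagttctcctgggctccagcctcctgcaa
The COL6A2 window held 4 GC boxes and a TATAAA and was 79.3% G and C, whereas the COL6A3 window held none of the searched motifs and was 56.3% G and C. These 2 windows were chosen for the opposite change of their chains. Among other windows, that of COL4A1, which fell, held 2 GC boxes, and that of COL17A1, which rose, held no GC box. Whether the motifs bear on the direction was not tested, and no window of COL6A1 was available. The ratio of COL6A1 to COL6A3 counts was 17.0, 21.3 and 9.65 in controls and 63.0, 125 and 68.6 with ILL. These did not overlap, and the log2 ratio differed by 2.42 (3.92 ± 0.59 against 6.35 ± 0.54, SD, n = 3; exact permutation p = 0.1, adjusted p = 0.25). The ratio of COL6A1 to COL6A2, in contrast, was 6.80, 5.67 and 5.17 against 5.18, 5.67 and 5.73 and overlapped (log2 difference -0.08, exact permutation p = 0.9).

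**Figure D3:**
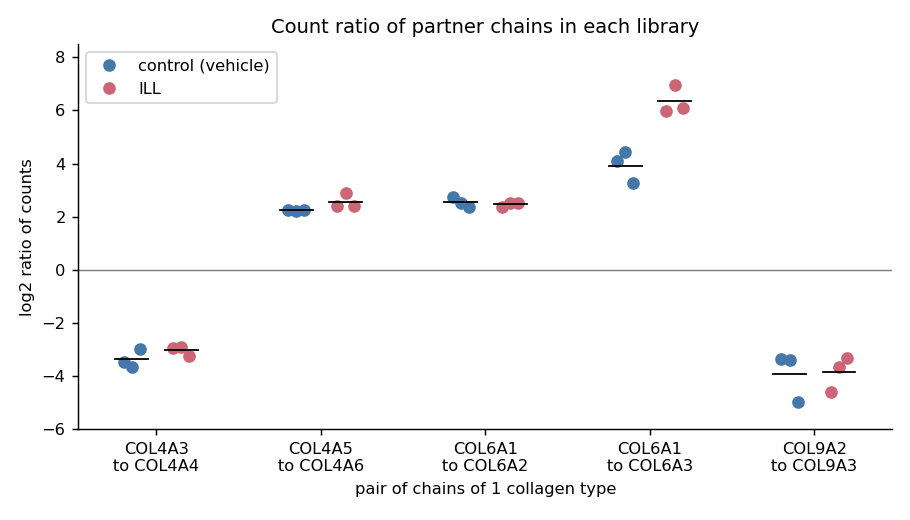
Log2 ratio of the counts of partner chains in each library (points; lines are means of 3 libraries) for the 5 pairs with at least 10 counts of both chains in every library. The COL6A1 to COL6A3 ratio shows the widest separation, at 3.92 in controls and 6.35 with ILL.

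Of the 10 fibril-associated chains, 5 were tested, 2 rose and 1 fell by adjusted p, beside 36.2% and 36.9% of all genes tested. COL12A1, which decorates type I fibrils and is known in tension-bearing tissue, measured 51.4, 53.8 and 50.2 CPM in controls and 18.2, 20.9 and 17.4 CPM with ILL. The spread within groups was small beside the difference, and the level fell by 1.46 on the log2 scale (SE 0.08, adjusted p = 1.8e-14), the most precisely measured of the lower chains. COL16A1, a chain of minor fibrils, had 40, 9 and 28 counts in controls and 132, 103 and 111 with ILL. None of these overlapped, and the log2 fold change was 2.24 (SE 0.37, adjusted p = 9.1e-06).

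COL9A3, a chain of the cartilage fibril-associated collagen type IX, rose from 8.45, 8.59 and 8.96 CPM to 18.8, 18.2 and 16.4 CPM, with a log2 fold change of 1.04 (SE 0.11, adjusted p = 6.6e-09) that no longer passed the fold cutoff without ILL replicate 1. COL9A3 overlaps TCFL5, which fell by 0.53 on the log2 scale, only at an edge. TCFL5 starts at position 62841005 and COL9A3 ends at 62841159, so only reads in that stretch cannot be told apart without strand. COL9A2 had 32, 29 and 10 counts in controls and 27, 50 and 57 with ILL, which overlapped (log2 fold change 0.99, SE 0.46, adjusted p = 0.0591), and it passed both cutoffs without ILL replicate 1 (1.25). The ratio of COL9A2 to COL9A3 overlapped between groups (log2 difference 0.05, exact permutation p = 0.8). COL22A1 had a log2 fold change of 0.76 (adjusted p = 0.0761).

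Of 11 fibrillar chains, 5 were tested and 2 rose by adjusted p, beside 36.2% of all genes tested. COL1A1, the main chain of type I collagen, measured 9.40, 9.33 and 11.8 CPM in controls and 14.7, 16.9 and 13.1 CPM with ILL. All ILL libraries lay above the controls, and it rose by 0.55 on the log2 scale (SE 0.12, adjusted p = 0.00036). Its partner COL1A2 had 7, 11 and 12 counts in controls and 10, 2 and 0 with ILL, and was not tested. COL5A3, which joins type V fibrils, had 7, 0 and 13 counts in controls and 50, 78 and 97 with ILL. The groups were far apart, and the log2 fold change was 3.53 (SE 0.57, adjusted p = 5.7e-06). With 1 library left out in turn it ranged from 2.97 to 4.47, the highest without control replicate 3. COL5A3 entered the test only through its ILL libraries, as control replicates 1 and 2 had under 10 counts. The fibril-starting chains COL5A1 and COL5A2 had log2 fold changes of 0.65 (SE 0.60, adjusted p = 0.335) and 1.09 (SE 0.55, adjusted p = 0.0775), and COL27A1 had -0.05 (95% interval -0.47 to 0.37).

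The remaining tested chains were COL7A1, COL8A2 and COL18A1. COL7A1 measured 61.8, 73.5 and 75.6 CPM in controls and 92.9, 111 and 80.7 CPM with ILL and rose by 0.43 on the log2 scale (SE 0.09, adjusted p = 9.3e-05). COL8A2, a short chain of subendothelial and corneal matrix, measured 1.52, 1.68 and 1.58 CPM against 3.06, 3.17 and 2.55 CPM without overlap and rose by 0.87 on the log2 scale (SE 0.28, adjusted p = 0.00697). COL18A1 measured 53.3, 56.5 and 56.7 CPM against 51.6, 59.4 and 48.0 CPM and overlapped (log2 fold change -0.07, 95% interval -0.22 to 0.08). It overlaps SLC19A1, which fell by 1.58 on the log2 scale. COL8A1, the partner of COL8A2, had 42, 6 and 17 counts in controls and 1, 0 and 1 with ILL and failed the filter on low counts. All 3 ILL libraries lay below the controls, and the ratio of summed counts was 0.0322 (65 against 2 counts, 95% exact interval 0.00382 to 0.121, counting error only). Without the filter, edgeR gave an adjusted p of 0.0001 for COL8A1.

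**Figure D4:**
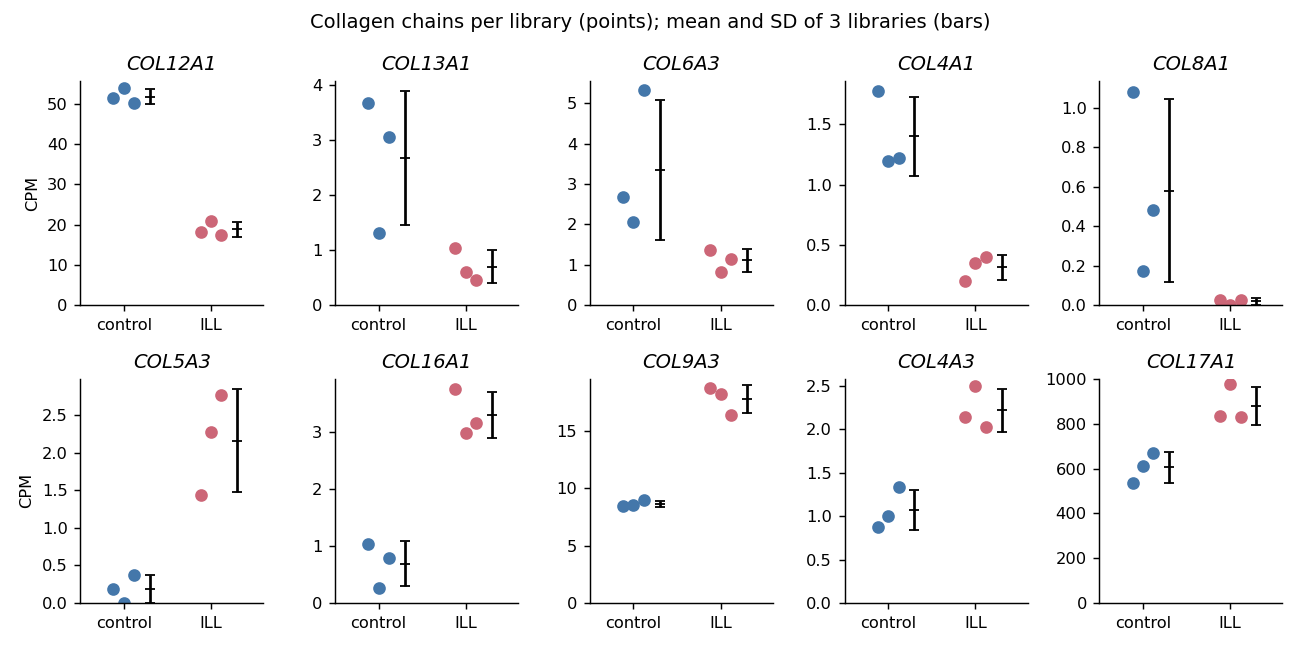
Level in CPM of 10 collagen genes in each control (blue) and ILL (red) library, with mean and SD of 3 libraries beside the points; each panel has its own axis from 0. COL12A1 shows little spread, from 50.2 to 53.8 CPM in controls, while COL6A3 and COL13A1 controls spread widely.

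The other untested chains had few reads. COL11A2 had 6 counts in controls and 20 with ILL, a ratio of 3.49 with a 95% exact interval of 1.35 to 10.6, and COL1A2 had 30 against 12, a ratio of 0.419 (0.195 to 0.843), although the libraries of both genes overlapped between groups. These intervals cover counting error only. Between replicate libraries the variance was 5.09 to 11.5 times that of counting error (chi-square per degree of freedom over genes). That value covers genes of all levels with at least 10 summed counts, and was not computed for rare genes alone. The intervals of COL15A1 (9 against 2 counts), COL23A1 (5 against 8) and COL2A1 (11 against 5) included a ratio of 1. All 8 counts of COL9A1 came from ILL replicate 3. Over the 24 tested chains, control replicate 1 was the lowest control in 12, control replicate 2 in 10 and control replicate 3 in 2, beside 32%, 31.7% and 36.2% of all tested genes. Control replicate 2 was the lowest in 8 of the 13 chains with a mean under 5 CPM. Of the 8 called chains, 8 kept their call without control replicate 2 and 7 without control replicate 1, where COL4A3 was lost.

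Genes that modify, export, link, bind or break down collagen were counted from 7 lists. Together they held 114 genes, of which 98 were tested, 15 were higher and 5 lower by adjusted p and fold, and 43 rose and 20 fell by adjusted p alone. These are shares of 15.3%, 5.1%, 43.9% and 20.4%, beside 12.5%, 11.4%, 36.2% and 36.9% of all genes tested. Among 17 tested genes of chain modification and folding, none passed the fold cutoff, while 5 rose and 6 fell by adjusted p (29.4% and 35.3%, both under the shares of all genes, 36.2% and 36.9%). P3H2 and TMEM38B lay just short of the fold cutoff, at 0.501 and 0.504 of the control. With scaling by library size only, 2 genes of this list were called lower, and with DESeq2's Wald test 1 was called higher. P4HB, a subunit of prolyl hydroxylase, rose from 972 ± 69.5 to 1350 ± 52.9 CPM (log2 fold change 0.48, SE 0.05, edgeR adjusted p = 1.3e-08), and PPIB, a prolyl isomerase, measured 345 ± 23.1 and 362 ± 7.35 CPM (adjusted p = 0.235). Of 17 tested genes of procollagen export and processing, 10 rose and 1 fell by adjusted p (58.8% and 5.88%, beside 36.2% and 36.9% of all genes). MIA2, a cargo receptor for large secreted proteins, rose from 57.9 to 133 CPM (1.20, adjusted p = 1.3e-15), and PCOLCE2, which enhances cleavage of the procollagen end, fell from 1.80 to 0.701 CPM (log2 fold change -1.36, adjusted p = 0.00315).

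Of 7 crosslinking genes, 1 rose and 3 fell by adjusted p (14.3% and 42.9%, beside 36.2% and 36.9% of all genes). LOXL3, a lysyl oxidase, fell from 5.84 to 1.37 CPM (log2 fold change -2.09, adjusted p = 1.9e-08), and TGM2, a transglutaminase with other roles too, fell from 4120 ± 73.2 to 1320 ± 33.7 CPM (-1.65, adjusted p = 2.5e-20). Of 12 tested collagen receptors, 6 rose and 1 fell by adjusted p (50% and 8.33%, beside 36.2% and 36.9% of all genes). OSCAR, a receptor on osteoclasts and myeloid cells, rose from 0.979 to 14.7 CPM, DDR1, a collagen-activated tyrosine kinase, from 454 to 1240 CPM, and the integrin subunits ITGA2 and ITGB1 from 166 to 435 CPM and from 1910 to 4580 CPM. Their log2 fold changes were 3.91, 1.45, 1.39 and 1.26.

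The list of collagen breakdown holds proteases together with their inhibitors, the TIMP genes, and its counts cover both. Of its 13 tested genes, 10 rose and 1 fell by adjusted p (76.9% and 7.69%, beside 36.2% and 36.9% of all genes). Upwards, 6 passed the fold cutoff (46.2%, beside 12.5%), TIMP3 and TIMP2 among them. TIMP3, an inhibitor of metalloproteinases, rose from 106 ± 5.74 to 432 ± 7.86 CPM (log2 fold change 2.02, adjusted p = 1.7e-20), MMP14, a membrane collagenase, from 486 to 1500 CPM (1.63), CTSL, a lysosomal protease, from 101 to 273 CPM (1.43) and MMP15 from 28.8 to 70.2 CPM (1.29). The other inhibitors listed, TIMP2 and TIMP1, rose as well, by 1.19 and 0.73 on the log2 scale, while the protease MMP2 fell by 0.73. Among 12 tested partner matrix proteins 3 rose and 3 fell by adjusted p (25% each, beside 36.2% and 36.9% of all genes). THBS1, a matricellular protein, fell from 654 to 92.6 CPM (-2.82, adjusted p = 2.1e-22), TGFBI fell from 1270 to 482 CPM (-1.40) and TNC, tenascin, rose from 136 to 473 CPM (1.80). Among 20 regulators of collagen genes 8 rose and 5 fell by adjusted p (40% and 25%, beside 36.2% and 36.9% of all genes), and CEBPB, a transcription factor, rose from 86.4 to 244 CPM (1.5, adjusted p = 5.8e-17).

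**Figure D5:**
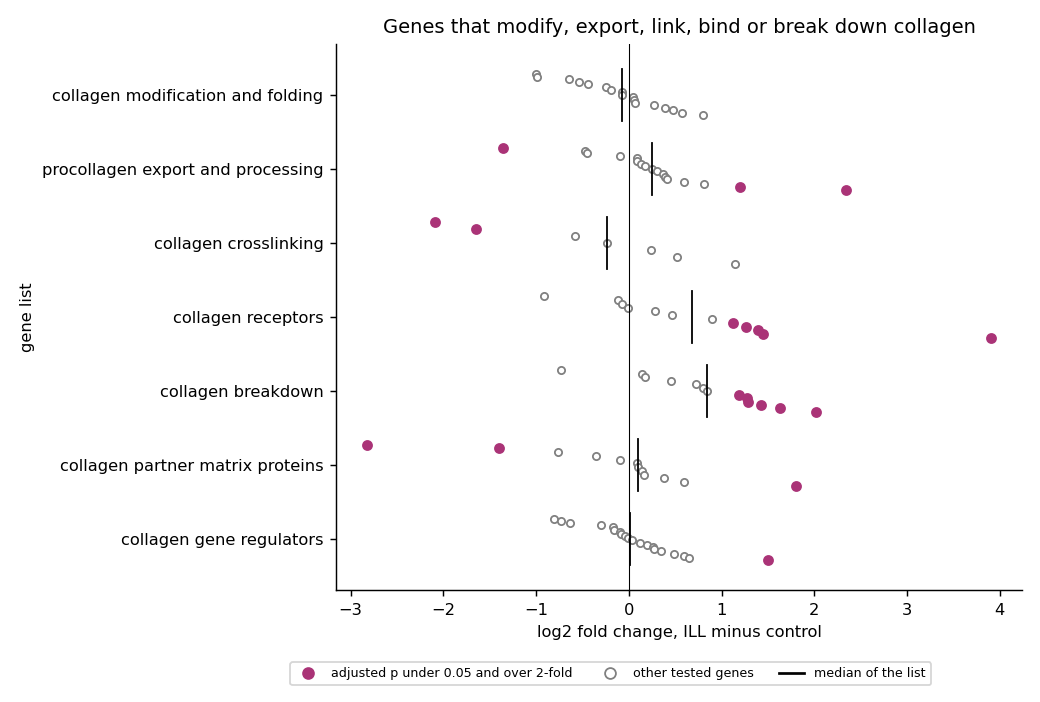
Log2 fold change (ILL minus control) of the tested genes in the 7 collagen-related lists; filled points passed an adjusted p under 0.05 and over 2-fold, open points are the other tested genes, and vertical bars are list medians. The breakdown list, which includes inhibitors of breakdown, has the highest median, 0.84, and the crosslinking list the lowest, -0.24.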

How the data were processed

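RNA-seq was performed on 6 libraries of HCCC9810 cells, 3 per group. The deposited values are raw counts of reads for each gene and, from the authors, FPKM; the deposited FPKM equal counts divided by gene length and library total within 0.1% for 100% of nonzero values. The submitters' processing notes name GRCh38 and DESeq2; the aligner, counting program, annotation and strand setting are not given in the sources used here. Counts were tested with edgeR 4.0.16 in R 4.3.3 (filterByExpr, TMM, quasi-likelihood test, Benjamini-Hochberg adjustment over all 13066 genes tested; biological coefficient of variation 0.0717). CPM use TMM-adjusted library sizes. Single values and ratios were compared by exact two-sided permutation of libraries. The collagen genes, the lists and the tests were chosen with earlier results of these data known. Named were all called chains, the 5 with the highest mean FPKM, members of partner pairs and, per related list, at most 4 genes that passed both cutoffs without overlap and with a mean of at least 1 CPM, or otherwise the 2 most abundant. Other chains and related genes were named where a count called for it, after their values were seen. Alternatives were DESeq2 1.42.0 (size factors, Wald test), scaling by library size, other filters, a replicate block, libraries left out, and limma 3.58.1 on FPKM. The fit was tested on simulated data. Gene positions and promoter sequences came from RefSeq tables of GRCh38.p14, matched by symbol. A marker gene of the epithelial list is not reported here.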

Additional observations from a re-analysis of the deposited data

How the results depend on the processing

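With scaling by library size only, 2 collagen genes were called higher. When each library had to reach 10 counts, 5 of the 8 calls and 13 of the 16 by adjusted p alone remained, since the other 3 chains could not be tested. In limma on FPKM only 11 collagen genes passed a mean of 1 FPKM, and a pseudocount shrinks low genes, by construction. There, the count called higher was 0 with log2(FPKM + 1), 0 with log2(FPKM + 0.1) and 0 with log2(FPKM + 1) and no filter, and the count called lower 1, 1 and 1, in each case COL12A1, while lower by adjusted p alone was 1 and 1 with the filter. Related genes called lower numbered 3 with and 3 without the filter at a pseudocount of 1, and the median collagen log2 fold change was 0.36 and 0.01. With 1 library left out in turn, 3 to 6 collagen genes were called higher and 4 to 6 lower (12 to 13 and 4 to 6 by adjusted p alone), 15 to 18 related genes were higher and 5 to 7 lower, the median was 0.46 to 0.63 and the summed collagen log2 difference 0.39 to 0.53. The log2 ratio differences ranged from 2.10 to 2.67 (COL6A1 to COL6A3), 0.15 to 0.40 (COL4A5 to COL4A6), 0.18 to 0.51 (COL4A3 to COL4A4), -0.17 to 0.03 (COL6A1 to COL6A2, turned without control replicate 1) and -0.49 to 0.42 (COL9A2 to COL9A3, turned to -0.49 without control replicate 3, -0.06 without ILL replicate 2 and -0.22 without ILL replicate 3). Same-numbered libraries showed no shared deviation (correlations 0.01066, -0.02176 and -0.01790), which cannot show whether they were handled as pairs. With the replicate block 4 collagen genes were called higher and 4 lower with a median of 0.60. The cause of these shifts was not tested.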
